A study of Mus musculus with 4 samples.

Results

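Aldh1a3-high and Aldh1a3-negative β cells of a single control islet library were compared, chosen by their Aldh1a3 counts. β cells were barcodes with at least 10000 unique molecular identifiers (UMIs, which mark single captured transcripts), at most 10% mitochondrial UMIs, at least 20% Ins1 and Ins2 UMIs, and less than 2% each of Gcg, Sst and Ppy. Of 2308 barcodes in the library, 1377 passed. Cells with 3 or more Aldh1a3 UMIs were called Aldh1a3-high (587 cells, 42.6% of β cells) and cells with no Aldh1a3 UMI were called Aldh1a3-negative (306 cells, 22.2%). The other 484 β cells, with 1 or 2 UMIs, entered neither group. The matrices read for the study hold 7376 barcodes.

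The study examined Myt3 (St18), a zinc finger transcription factor of endocrine cells, by single-cell RNA-Seq of adult mouse islets. The library used here is labelled control, replicate 2 (control 2), and comes from the control side of a line that carries a 12-base insertion in Myt3 (Myt3IM/IM mutants). The paper describes a high-fat diet and inDrop-Seq, whereas normal diet and PIPseq are the entries of the labels, so the diet of these mice cannot be settled here. The libraries of mutant 1 and mutant 2 were also read, while control 1 was not analysed here. The labels give no age beyond adult.

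Some features of control 2 precede the results. The methods describe each sample as islets pooled from males and females, while the paper elsewhere limits its high-fat diet work to males. Xist, the RNA that coats the inactive X chromosome, had a UMI in only 3 of the 2308 barcodes. Among the β cells, 2 held an Xist UMI and 1331 of 1377 held a UMI of a Y-linked gene (Ddx3y, Eif2s3y, Kdm5d or Uty). The labels also give control 2 a batch entry of its own. It holds 36985253 UMIs, against 8448466 and 9013499 in mutant 1 and mutant 2, and none of its barcodes was found in another library. Because the 2 groups lie within control 2, batch and library do not differ between them, and because there is 1 library, no test between them is possible: cells of a library are not replicates. Intervals given below cover counting error only. The mouse that each cell came from is not known, so animal and Aldh1a3 group cannot be told apart.

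Aldh1a3 encodes a cytosolic aldehyde dehydrogenase that oxidizes retinaldehyde to retinoic acid, the ligand of the nuclear retinoic acid receptors. In mouse islets it is widely used as a marker of β cells that are failing or losing their mature identity, a state called dedifferentiation. Mature β cells are known for high Ins1, Ins2 and Iapp, for the glucose transporter Slc2a2, and for the transcription factors Mafa, Pdx1 and Nkx6-1.

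Aldh1a3 counts, which chose the groups, are given as a description. They ran from 0 to 41 UMIs per β cell, with a mean of 3.22 and a variance of 16.0. Had each cell drawn its Aldh1a3 UMIs at a common rate for its depth, 102 cells would have held none, whereas 306 did. The high group held 3750 Aldh1a3 UMIs, a median of 5 per cell, at 255 CPM (UMIs scaled to a common total). At the thresholds, 159 cells held exactly 3 UMIs, just inside the high group, and 199 held exactly 2, just outside it. In depth, 61 β cells lay between 10000 and 11000 UMIs, and 55 cells that met the other limits lay between 9000 and 10000.

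**Figure D1:**
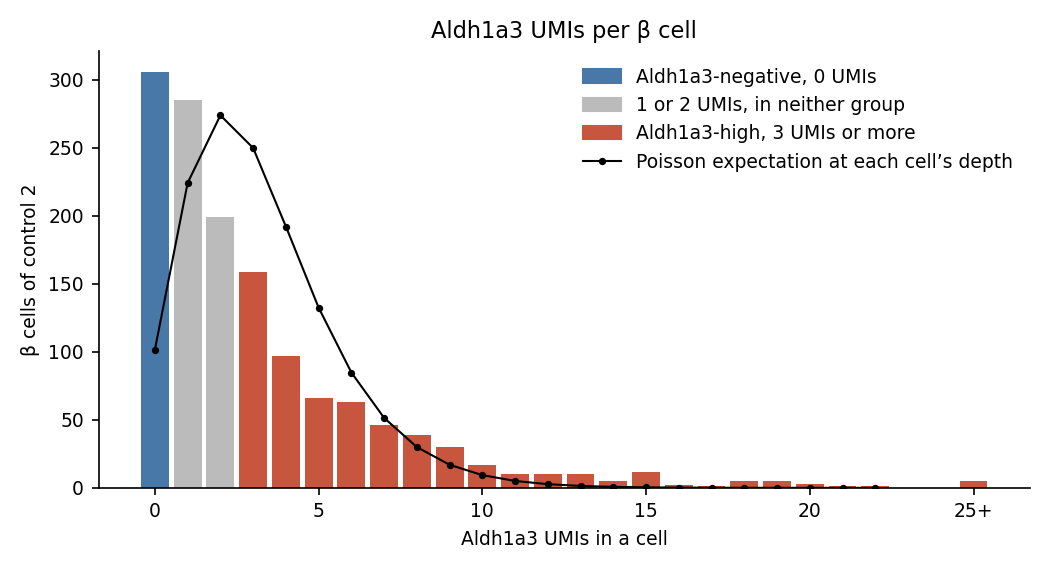
Number of β cells of control 2 (y axis) at each Aldh1a3 UMI count (x axis, cells of 25 or more joined). Bars are the 1377 cells, coloured by group, and the line is the number expected if all cells shared a rate at their own depth. The counts exceed the line at 0 and in the upper tail.

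Every UMI was also assigned at random to set A or set B of its cell, and cells were classified on set A, as 2 or more Aldh1a3 UMIs (521 cells) or none (505 cells). In set B Aldh1a3 stood at 234 CPM (222 to 246) in the former and 55.4 CPM (49.2 to 62.0) in the latter. Cells with none in set A thus still held Aldh1a3 in set B, so a count of 0 marks cells in which no transcript was captured. Both sets hold UMIs that the group rule used, and these values are a description.

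Within control 2, β cells of any depth from 500 UMIs held 147 CPM of Aldh1a3 (143 to 151). Its level was 25.5 CPM (9.37 to 55.6) in 34 α cells by Gcg share and 36.6 CPM (9.97 to 93.7) in 19 δ cells by Sst share. It was 5.29 CPM (0.134 to 29.5) in 22 PP cells by Ppy share and 37.2 CPM (20.8 to 61.3) in 47 non-endocrine cells. None of these held 3 UMIs in a cell. In the non-endocrine cells, with a median of 6039 UMIs, 27.7% had an Aldh1a3 UMI, against 69.1% of β cells at a median of 16299.5 UMIs. In mutant 1 and mutant 2, β cells held 32.3 and 32.7 CPM, and these libraries have only 24 and 112 β cells of 10000 UMIs or more, of which 0 and 8 were Aldh1a3-high. The paper reports the other direction, with increased Aldh1a3 in mutant β cells. The β cells of mutant 1 and mutant 2 had medians of 2876 and 4615 UMIs, and control 2 is the only control library read. Genotype, batch and depth cannot be told apart between these libraries, and genotypes were not compared.

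The groups differed in depth. Median UMIs per cell were 23285 (interquartile range 16737.5 to 30749) in Aldh1a3-high cells and 19380.5 (14399.5 to 26232.5) in Aldh1a3-negative cells. Each cell was therefore thinned at random to 10000 UMIs of genes other than Aldh1a3 before genes were compared. At this depth the median number of genes per cell was 2248 in the high and 2185.5 in the negative group. The mitochondrial share was alike, at medians of 0.926% and 0.930%. Insulin transcripts took a median of 56.4% of UMIs in high cells and 58.6% in negative cells. Cells with a Y-linked UMI made up 96.9% and 97.1%. Whether the remaining difference in depth has a part in the ratios below was not tested, and ratios within 3 ranges of depth are given beside them.

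Aldh1a3-high and Aldh1a3-negative β cells had closely similar transcriptomes outside a small number of genes. For the 4199 genes whose level averaged 20 CPM or more over both groups, the median log2 ratio (high over negative) was 0.03, with 5% of the genes under -0.30 and 5% over 0.35. The ratio was above 0.5 for 51 genes (1.21%) and below -0.5 for 43 genes (1.02%), and 138 and 28 genes with the negative cells weighted to the depth of the high cells. Only Cck passed 1, and Slc5a10, Cartpt and Sst passed -1. Most genes past 0.5 in either direction lay at low counts, and 17 of the 51 and 25 of the 43 reached the average of 20 CPM only through the group in which they were higher. A second random thinning gave 52 and 28 genes, of which 20 and 19 were among the first 51 and 43, although 51 of 51 and 42 of 43 kept their sign. At 50 CPM or more, 9 of 1600 genes were above 0.5 and 4 were below -0.5, of which 5 and 1 reached 50 CPM only through the group in which they were higher. Cartpt, a neuropeptide gene singled out after its values were seen, stood at 15.8 CPM in high and 38.9 CPM in negative cells, but 5 cells held 80.7% of the negative group's UMIs and the ratio was 0.37 without 5 cells in each group. Single genes are named below by the size of their ratio at this level, and by membership of a gene list.

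**Figure D2:**
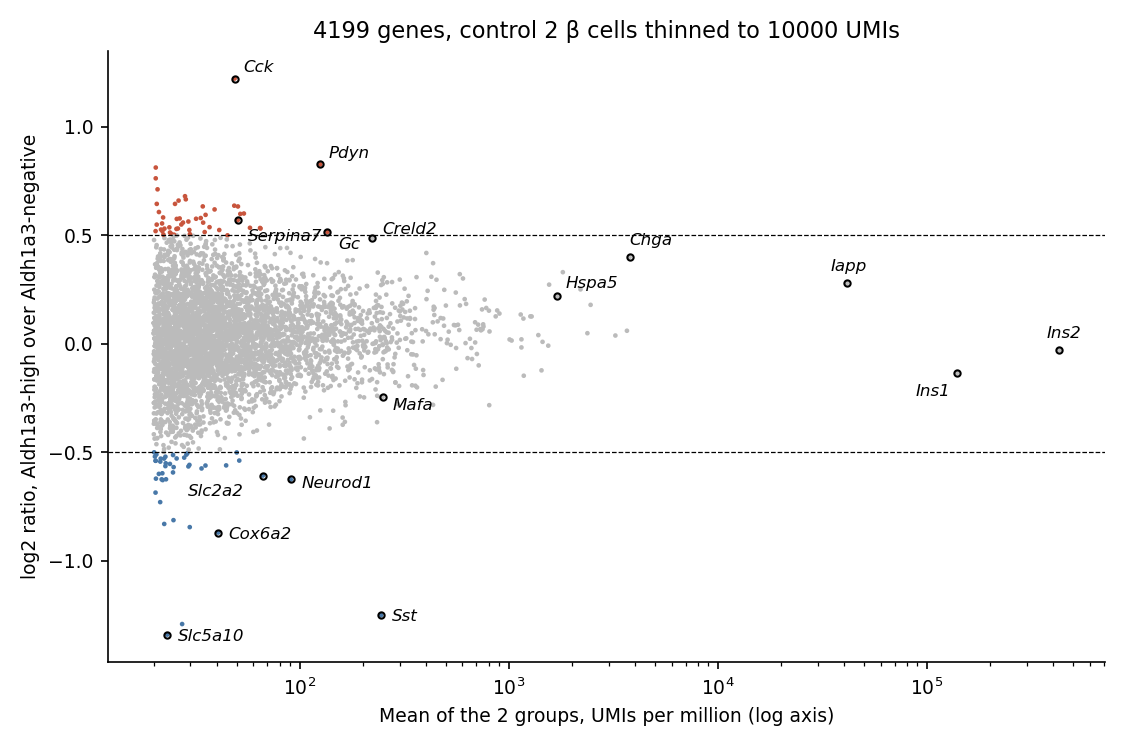
Log2 ratio of Aldh1a3-high over Aldh1a3-negative cells (y axis) against mean level in CPM (x axis, log scale) for 4199 genes of control 2. Points are genes, coloured where past 0.5 or -0.5 (dashed lines). Cck at 1.22 and Pdyn at 0.83 stand above genes of their level, and Sst, Slc5a10 and Cox6a2 below.

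Pdyn and Cck were higher in Aldh1a3-high cells. Pdyn, which encodes the precursor of the dynorphin opioid peptides, had 942 UMIs in high and 276 UMIs in negative cells, that is 160 and 90.2 CPM, a log2 ratio of 0.83 (0.64 to 1.03). It was the highest ratio of the 1600 genes at 50 CPM or more. Cck, which encodes the gut and brain peptide cholecystokinin and which islets of obese mice are known to produce, had 402 and 89 UMIs, that is 68.5 and 29.1 CPM, a log2 ratio of 1.22 (0.90 to 1.58). Its mean level lay just under 50 CPM, and Cck was the highest of all 4199 genes. Few cells carried it: 137 of 587 high cells and 45 of 306 negative cells had a Cck UMI, and the 5 cells with the most UMIs held 24.9% and 32.6% of them. Without these 5 cells in each group the log2 ratio was 1.36, and for Pdyn, treated in the same way, 0.90.

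Both genes were higher at each higher Aldh1a3 count. At 0, 1, 2, 3 to 4, and 5 or more Aldh1a3 UMIs, Pdyn stood at 90.2, 117, 146, 152 and 167 CPM. Cck stood at 29.1, 36.5, 43.7, 55.5 and 78.6 CPM in the same cells, so that cells with 1 or 2 UMIs, which were in neither group, lay between the groups. Median depth also increased over these levels, from 19380.5 to 24370 UMIs before thinning. Within cells of 10000 to 17000, 17000 to 25000, and 25000 or more UMIs, the log2 ratios were 1.09, 1.32 and 1.08 for Cck and 0.62, 0.70 and 0.93 for Pdyn. With every cell thinned to 2000 UMIs, Pdyn had a UMI in 23.2% of high cells (19.8 to 26.8) and 17.3% of negative cells (13.3 to 22), against 2 of 47 non-endocrine cells. Cck had one in 8.35% (6.24 to 10.9) and 5.56% (3.27 to 8.75), and in 0 of 47 non-endocrine cells (0 to 7.55%). The intervals of high and negative cells overlap for both genes.

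**Figure D3:**
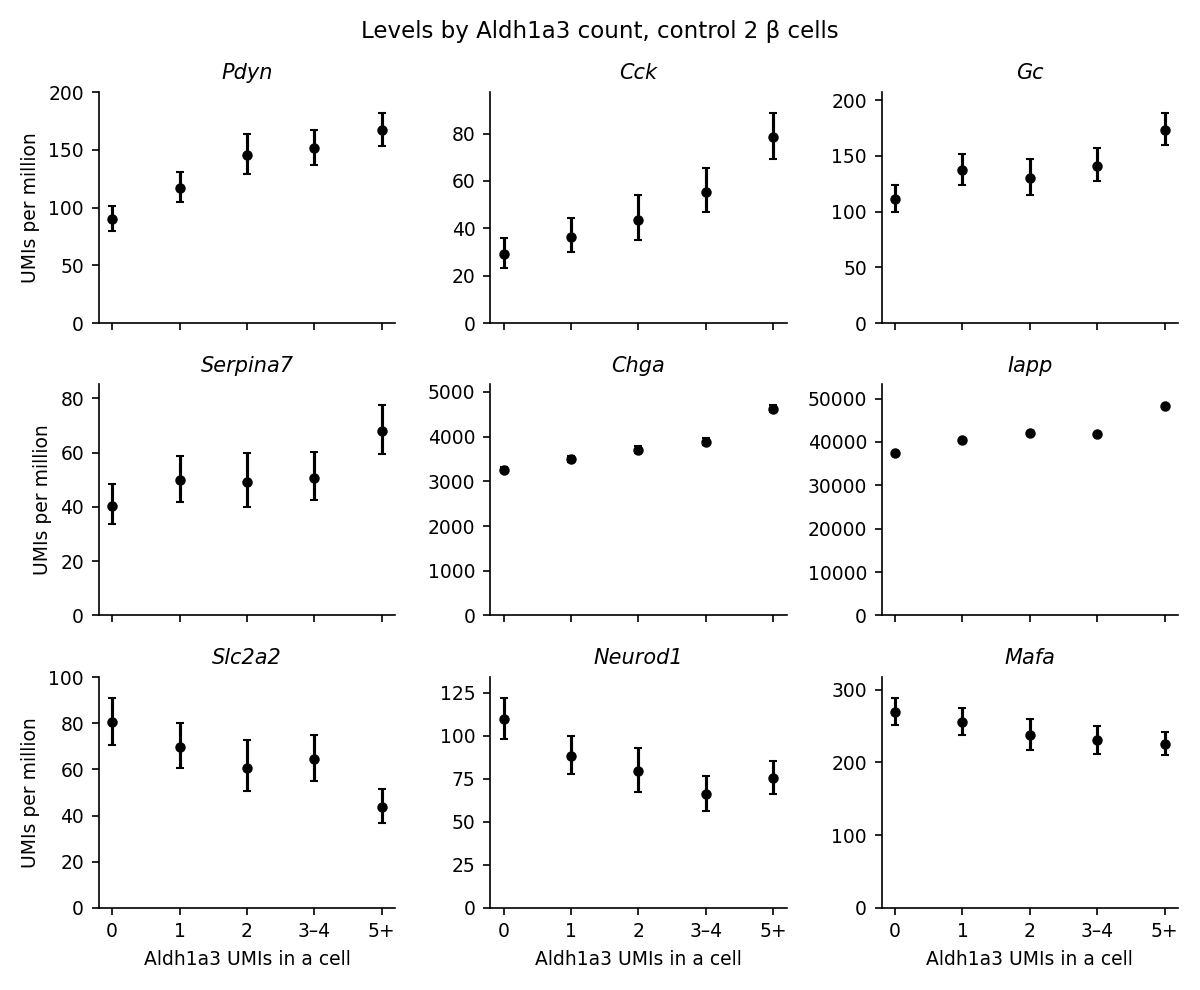
Levels in CPM (y axes, from 0) of 9 genes in β cells of control 2 by Aldh1a3 UMI count (x axes, 306, 285, 199, 256 and 331 cells). Points are summed UMIs after thinning, and bars are exact 95% Poisson intervals for counting error. Pdyn, Cck and Chga increase at every step, and Slc2a2 is lowest in cells of 5 or more.

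The granule peptide genes Iapp and Chga, both abundant in these cells, were higher in Aldh1a3-high cells. Iapp, the amyloid peptide stored and released with insulin, stood at 45381 CPM in high and 37394 CPM in negative cells, a log2 ratio of 0.28 (0.27 to 0.29). Per cell, the median was 418 (interquartile range 323 to 545.5) and 361 (281.5 to 441.25) Iapp UMIs in 10000, so that the groups overlapped widely. Chga, which encodes the granule protein chromogranin A, stood at 4302 and 3261 CPM, a log2 ratio of 0.40 (0.37 to 0.43). Its levels by Aldh1a3 count were 3261, 3495, 3709, 3885 and 4624 CPM. In the 3 depth ranges the log2 ratio was 0.37, 0.26 and 0.36 for Iapp and 0.43, 0.46 and 0.51 for Chga. The insulin genes did not go with them. Ins1 was lower in high cells, at 133034 against 146021 CPM (log2 ratio -0.13), and Ins2 stood at 425927 against 434589 CPM (-0.03).

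The other genes of hormone processing and granules showed no common shift of this size. Of 34 listed, 30 were at 20 CPM or more, with a median log2 ratio of 0.06, and 0 passed 0.5 in either direction. Chga was the highest, followed by Ptprn (0.28), a granule membrane protein, and Cplx2 (0.27), which binds the fusion machinery. The proprotein convertases Pcsk1 (0.04) and Pcsk2 (-0.01), which cut proinsulin, differed little, as did Scg2 (0.04).

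Gc and Serpina7 were the other members of the list of dedifferentiated, immature or diabetic β cells above 0.5. Gc, the vitamin D binding protein, stood at 160 CPM in high and 111 CPM in negative cells, a log2 ratio of 0.52 (0.34 to 0.70). Serpina7, which encodes thyroxine-binding globulin, stood at 60.5 and 40.5 CPM, a ratio of 0.57 (0.28 to 0.88), but in cells of 25000 or more UMIs the ratio was -0.13. At 2000 UMIs per cell it had a UMI in 10.7% of high cells (8.35 to 13.5), 6.54% of negative cells (4.04 to 9.91) and 4.26% of non-endocrine cells (0.520 to 14.5). In this list of 38 genes, 12 were at 20 CPM or more, with 3 above 0.5 (Cck, Serpina7 and Gc), 1 below -0.5 (Slc5a10) and a median of -0.05, where 1.21% and 1.02% of all genes lay past these limits. Slc5a10, a sodium-coupled sugar transporter, went the other way, at 13.1 CPM in high and 33.3 CPM in negative cells (log2 ratio -1.34, -1.79 to -0.90), with ratios of -1.76, -0.89 and -1.25 in the depth ranges. It reached the 20 CPM average only through the negative cells. The progenitor factor Neurog3 had 5 and 1 UMIs and Gast, the gastrin gene, 8 and 7, which is too few to compare. Nupr1 (-0.01), Cd81 (0.12), Etv1 (-0.10) and Sox4 (-0.27) lay within 0.5. Some members of this list were chosen with results of these libraries known, so its count is not independent evidence of a direction.

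**Figure D4:**
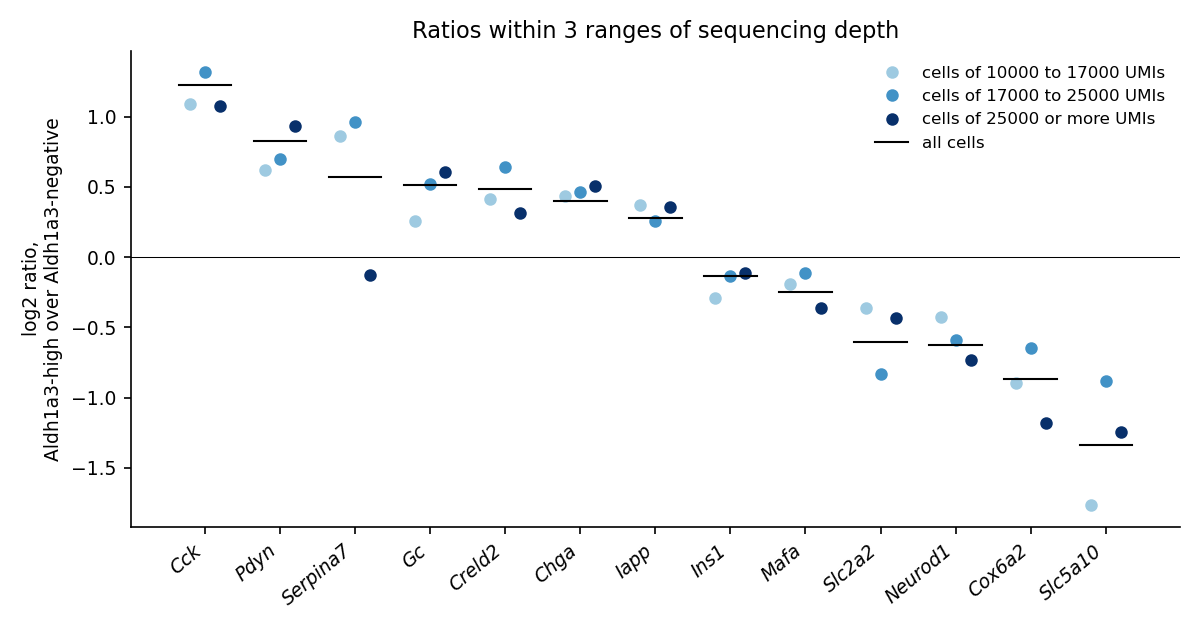
Log2 ratio of Aldh1a3-high over Aldh1a3-negative cells (y axis) for 13 genes (x axis) in 3 ranges of UMIs per cell (points) and in all cells (lines). The ranges hold 151 and 115, 180 and 108, and 256 and 83 high and negative cells. The sign is the same in each range for every gene shown except Serpina7, at -0.13 in the deepest cells.

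Neurod1 and Slc2a2 had the lowest ratios after Sst among genes at 50 CPM or more. Slc2a2, the glucose transporter GLUT2, stood at 52.8 CPM in high and 80.4 CPM in negative cells, a log2 ratio of -0.61 (-0.85 to -0.36). By Aldh1a3 count it stood at 80.4, 69.8, 60.8, 64.5 and 43.8 CPM. At 2000 UMIs per cell, 8.86% of high cells (6.69 to 11.5) and 14.1% of negative cells (10.4 to 18.5) had a Slc2a2 UMI, against 6.38% of non-endocrine cells (1.34 to 17.5). Neurod1, a basic helix-loop-helix factor needed for β-cell maturity, stood at 71.2 and 110 CPM, a ratio of -0.63 (-0.84 to -0.41). The size for Neurod1 depends on the thinning, since the ratio was -0.39 in a second draw and -0.36 without thinning, both short of -0.5. Both were lower in each depth range, with ratios of -0.36, -0.83 and -0.43 for Slc2a2 and -0.43, -0.59 and -0.73 for Neurod1.

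The other genes of β-cell identity and function mostly differed little between the groups. Of 29 transcription factors listed, 20 were at 20 CPM or more, with a median ratio of 0.06, and Neurod1, in the first draw, was the only one past 0.5. Mafa, which drives insulin transcription in mature β cells, stood at 228 CPM in high and 270 CPM in negative cells, a log2 ratio of -0.25 (-0.37 to -0.12). Over the Aldh1a3 counts it stood at 270, 255, 238, 230 and 226 CPM. Pdx1 (-0.05), Nkx2-2 (0.06) and Nkx6-1 (0.15) lay nearer to 0. Myt3 itself (St18) stood at 90.3 and 75.8 CPM, a log2 ratio of 0.25 (0.03 to 0.48), and its paralog Myt1 at 16.7 and 20.3 CPM (-0.29, -0.75 to 0.20). The size for St18 depends on the processing. Its ratio was 0.16 in a second draw, 0.09 on set B and 0.43 with negative cells weighted to the depth of high cells.

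Of 31 genes for glucose uptake, metabolism, channels and receptors, 27 were at 20 CPM or more, with a median ratio of -0.01, and Slc2a2 was the only one past 0.5. The glucose-6-phosphatase subunit G6pc2 (0.06) was close to even. Ucn3, a peptide of mature β cells, stood at 171 and 143 CPM, a ratio of 0.25 (0.09 to 0.42). Kcnj11 (0.41), the pore of the ATP-sensitive potassium channel, and Gipr (0.45), the receptor of the incretin GIP, were the highest of this list, and Robo2 (-0.39), a receptor of islet architecture, was the lowest after Slc2a2.

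Genes of folding and export in the endoplasmic reticulum were a little higher in Aldh1a3-high cells. Of 48 listed, 48 were at 20 CPM or more, 44 had a ratio above 0, as did 2384 of all 4199 genes, and the median was 0.13 against 0.03 for all genes, while 0 passed 0.5. In the 3 depth ranges, 36, 36 and 39 of the 48 and 2483, 2320 and 2647 of all genes lay above 0, with medians of 0.12, 0.14 and 0.19 against 0.06, 0.04 and 0.10 for all genes. Creld2, a folding factor induced by endoplasmic reticulum stress, was the highest, at 260 and 185 CPM (log2 ratio 0.49, 0.35 to 0.63). The disulfide isomerase Pdia4 (0.33), the signal peptidase subunit Sec11c (0.33), the chaperone Canx (0.31), the oligosaccharyltransferase subunit Rpn2 (0.31) and the stress-induced secreted factor Manf (0.30) followed. Hspa5, the main luminal chaperone BiP, stood at 1837 and 1576 CPM, a ratio of 0.22 (0.17 to 0.27). The stress sensor Eif2ak3 (-0.13) and Selenos (-0.21), of the retrotranslocation machinery, lay lowest.

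Genes of the Atf4 arm of the stress response had a median that varied with the cells and the draw. In this list of 36, 22 were at 20 CPM or more, with a median of 0.00, 0 above 0.5 and 2 below, against 1.21% and 1.02% of all genes. The median was 0.07 in a second draw, and 0.06, 0.14 and -0.02 in the 3 depth ranges, where 13, 16 and 11 of the 22 lay above 0. The 2 members below -0.5 were Phgdh (17.4 and 26.8 CPM, ratio -0.63), the first enzyme of serine synthesis, and Ppp1r15a (20.4 and 29.1 CPM, -0.51), the phosphatase subunit that ends the response. Phgdh reached the 20 CPM average only through the negative cells, and Ppp1r15a fell short of -0.5 in a second draw (-0.46), without thinning (-0.30) and on set B (-0.23). Atf4 stood at 130 and 128 CPM (0.01) and Ddit3, encoding CHOP, at 96.9 and 84.0 CPM (0.20). The amino acid transporter chains Slc3a2 (0.37) and Slc7a5 (0.33) were the highest.

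Other genes of retinoid metabolism were scarce in these cells. Of 38 listed, 4 reached 20 CPM, with ratios within 0.5. Among them were Adh1 (0.11), an alcohol dehydrogenase that can act on retinol, and the receptor coregulators Ncor1 (-0.05) and Ncoa1 (-0.10). The sister enzymes Aldh1a1 and Aldh1a2 had 5 and 1 UMIs in high cells and 1 and 0 in negative cells. Cyp26a1 and Cyp26c1, which degrade retinoic acid, and Crabp2, which carries it, had 0 UMIs in both groups. Among the receptors, Rara had 43 and 15 UMIs and Rxra 94 and 60 in high and negative cells. Rbp4, the retinol-binding protein gene, had 26 UMIs in negative cells, of which 5 cells held 69.2%. It had 4 in cells of 3 to 4 Aldh1a3 UMIs and 10 in cells of 5 or more, a log2 ratio of -1.79 between the groups. The Rbp4 ratio was -1.31 without 5 cells in each group. Rbp4 is also a member of the list of δ cell markers, with Sst. In the 3 depth ranges the log2 ratio was -0.98, -4.13 and 0.83 for Rbp4 and -0.28, -3.06 and -0.35 for Sst. The part of δ cell RNA in the Rbp4 ratio was not tested. Of 16 other aldehyde dehydrogenases, 3 reached 20 CPM, with ratios of 0.32 (-0.04 to 0.71) for Aldh1l2, 0.24 for Aldh18a1 and 0.19 for Aldh9a1. The ratio of Aldh1l2 was -0.16 in cells of 10000 to 17000 UMIs and 0.11 in a second draw.

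**Figure D5:**
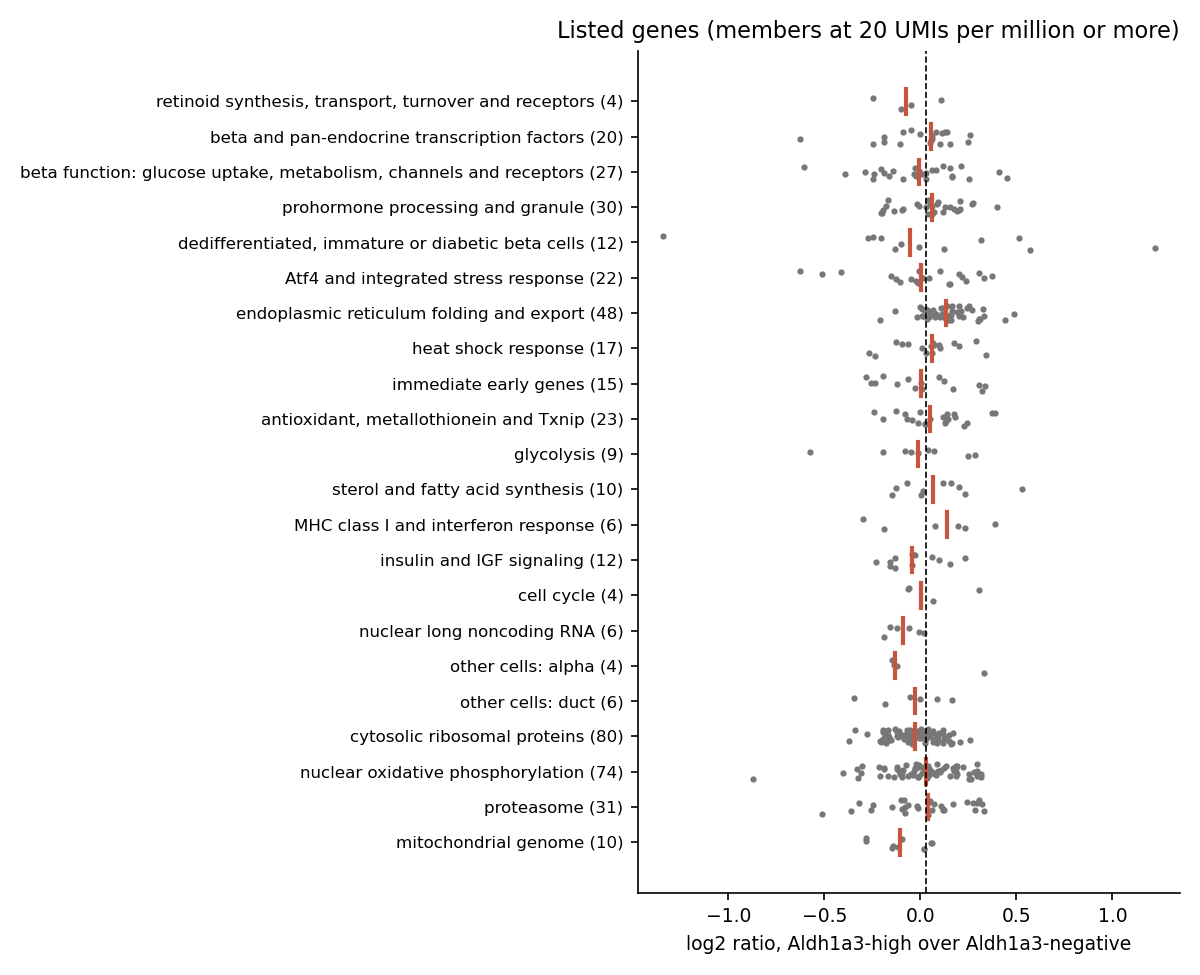
Log2 ratio of Aldh1a3-high over Aldh1a3-negative cells (x axis) for members of gene lists (rows, number of members at 20 CPM or more in brackets). Points are genes, red bars list medians, and the dashed line is the median of all genes, 0.03. The endoplasmic reticulum list lies to the right of the line, with a median of 0.13, and other lists of 12 or more genes lie nearer to it. Some shorter lists lie as far or farther: MHC class I and interferon (0.14), mitochondrial genome (-0.11), nuclear long noncoding RNA (-0.09), retinoid (-0.07) and α cells (-0.13).

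Genes of energy metabolism, translation and protein turnover differed little between the groups, apart from single genes. Nuclear genes of oxidative phosphorylation had a median of 0.03 (74 of 94 at 20 CPM or more), genes of the mitochondrial genome -0.11 (10 of 13), cytosolic ribosomal proteins -0.03 (80 of 83), the proteasome 0.04 (31 of 51) and glycolysis -0.01 (9 of 18). Cox6a2, a cytochrome oxidase subunit typical of muscle, was the exception in the first list, at 28.8 CPM in high and 52.6 CPM in negative cells (log2 ratio -0.87, -1.19 to -0.55), and it was lower in each depth range. Gapdh (27.3 and 40.5 CPM, -0.57) and Psmd14 (17.0 and 24.2 CPM, -0.51) were the other single exceptions, but Psmd14 reached 20 CPM only through the negative cells, and Gapdh stood at -0.30 in a second draw and 0.23 in cells of 25000 or more UMIs. Heat shock (0.06), immediate early (0.00), antioxidant (0.05), insulin and IGF signaling (-0.04), cell cycle (0.00) and nuclear long noncoding RNA genes (-0.09) had 0 members past 0.5. In sterol and fatty acid synthesis (median 0.07), Sqle, which makes squalene epoxide, was above 0.5 at 76.8 and 52.9 CPM (0.53), though at 0.34 in a second draw and 0.33 without thinning it was not. MHC class I and interferon genes had a median of 0.14 over 6 of 30, with H2-K1 at 0.20. Of 27 genes normally low in β cells, C1qbp alone was at 20 CPM, with a ratio of 0.16.

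Several further genes ranked among the 12 highest without a shared role. They were Snx5 (0.63), Puf60 (0.60), Rbm8a (0.60), Taf10 (0.53), Odad1 (0.53), 1110065P20Rik (0.50) and Sfi1 (0.46), at levels between 61.7 and 140 CPM in high cells. A second draw gave 0.24 for Snx5, 0.26 for Rbm8a, 0.34 for Odad1 and 0.40 for 1110065P20Rik. It gave 0.52 for Puf60 and 0.54 for Taf10 and Sfi1. Of the 12 highest, 6 reached the 50 CPM average only through the high cells (Snx5, Puf60, Rbm8a, Serpina7, Taf10 and Sfi1), and of the 12 lowest, 3 only through the negative cells (Ppm1l, Cmtm4 and Syndig1l). Snx5 is a sorting nexin of endosomes, Puf60 and Rbm8a act in splicing and Taf10 in transcription initiation. With cells classified on set A and genes measured on set B, Snx5 stood at -0.03, Rbm8a and Taf10 at 0.13, Puf60 at 0.39, and Odad1, 1110065P20Rik and Sfi1 at 0.34. On the same UMIs Pdyn stood at 0.70, Gc at 0.35, Slc2a2 at -0.66 and Neurod1 at -0.31. The lower end held Ppm1l (-0.54), Stat3 (-0.44), Cmtm4 (-0.42), Gramd3 (-0.41), Brd2 (-0.40), Syndig1l (-0.37), Rpl9 (-0.37) and Scarb2 (-0.37), of which Cmtm4 stood at -0.03, Syndig1l at -0.01, Ppm1l at -0.19, Brd2 at -0.34 and Stat3 at -0.41 on set B. Stat3, the transcription factor downstream of leptin and interleukin 6 receptors, stood at 88.9 and 120 CPM and was lower in each depth range, at -0.42, -0.29 and -0.44.

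Markers of other islet cells are given separately. The part of free hormone RNA in them was not tested. Sst, the hormone of δ cells, had the lowest ratio at 50 CPM or more, at 145 CPM in high and 345 CPM in negative cells (-1.25), but the 5 cells with the most held 73.6% of the negative group's UMIs. Without 5 cells in each group the ratio was -0.45, and with each of Gcg, Sst and Ppy held under 0.5% it was 0.01. The δ list of 8 genes summed to 153 and 360 CPM, of which Sst was the most abundant, and 2 of its genes were at 0. The α list summed to 2355 and 1975 CPM, led by Ttr (2019 and 1606 CPM), which β cells also express, while Gcg stood at 164 and 178 CPM. The PP list summed to 482 and 545 CPM (Ppy 222 and 264), the acinar list to 116 and 104 (Ctrb1 17.9 and 16.3) and the duct list to 551 and 552 (Krt18 239 and 213). The endothelial list summed to 59.8 and 55.6 CPM (Cdh5 27.8 and 25.5), stellate cells and fibroblasts to 11.4 and 8.17 (Sparc 3.58 and 1.96) and leukocytes to 55.9 and 56.5 (C1qa 37.5 and 39.2). Their part in the other ratios was not tested.

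A broader contrast, any Aldh1a3 UMI against none, was then examined in all 3 libraries read, which allows a test over libraries. Because the mutant libraries are shallower, β cells of 2000 UMIs or more were used. They were split at their full depth into cells with an Aldh1a3 UMI and cells with none, and were then thinned to 2000 UMIs. There were 1380 and 616 such cells in control 2, 140 and 1369 in mutant 1, and 129 and 1086 in mutant 2. Both mutants are homozygous for the Myt3 insertion, and genotypes were not compared. Of 4815 genes, edgeR's quasi-likelihood test with library as a block called 1 gene higher (0.0208%) and 2 lower (0.0415%) at an adjusted p under 0.05. At an unadjusted p under 0.05 there were 164 and 128 genes, and DESeq2 called 0 and 0 after adjustment. The gene called higher, Tff3, an intestinal trefoil peptide, rests on a single cell: in mutant 2, 184 of its 189 UMIs in cells with Aldh1a3 came from 1 of 129 cells. Without mutant 2, 0 genes were called higher.

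The genes called lower were mt-Co2 and mt-Co1, cytochrome oxidase subunits of the mitochondrial genome. The edgeR log2 ratios were -0.52 and -0.48, each with an adjusted p of 0.0065. By library, the log2 ratio of mt-Co2 was -0.65 in control 2, -0.65 in mutant 1 and 0.00 in mutant 2. For mt-Co1 it was -0.72, -0.05 and -0.41. Cells with Aldh1a3 were deeper in every library, with medians of 18638 against 9793 UMIs in control 2, 4239 against 3563 in mutant 1 and 6430 against 5099 in mutant 2, and the part of depth in these calls was not tested. Both calls were lost without mutant 1, where the edgeR ratios of mt-Co2 and mt-Co1 were -0.51 and -0.62, without control 2 (-0.39 and -0.27), and where control 2 was held to cells of 10000 UMIs or more (-0.31 and -0.28). They were also lost at 1000 UMIs per cell, with edgeR adjusted p of 0.252 and 0.360 at ratios of -0.46 and -0.39. Neither was called with DESeq2 (-0.48 and -0.43) or with no library term (-0.50 and -0.45). At 3000 UMIs mt-Co2 was lost, at a ratio of -0.40 (edgeR adjusted p 0.0581).

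Pdyn was higher in cells with Aldh1a3 in each of the 3 libraries. In control 2 it stood at 143 CPM with and 101 CPM without an Aldh1a3 UMI, in mutant 1 at 50 and 34.7 CPM (14 and 95 UMIs), and in mutant 2 at 50.4 and 28.1 CPM (13 and 61 UMIs). The edgeR log2 ratio was 0.59 (SE 0.16), with an unadjusted p of 0.000298 and an adjusted p of 0.188, which does not pass. When control 2 was held to cells of 10000 UMIs or more, the edgeR ratio was 0.92 with an adjusted p of 0.00142, a setting chosen after the data were seen and the highest of the alternatives run. At 1000 and 3000 UMIs per cell the edgeR ratio was 0.41 and 0.36, with adjusted p of 0.868 and 0.664. In the mutants alone, which took no part in naming Pdyn, the edgeR ratio was 0.63 with an adjusted p of 0.991.

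The genes named from control 2, Pdyn included, did not pass the edgeR test over libraries. With control 2 held to cells of 10000 UMIs or more, Sst passed beside Pdyn, with an edgeR ratio of -0.51 and an adjusted p of 0.00562. Sst is limited by the β-cell rule, so this call is not read as a difference between the cells. In the main contrast Sst was lower in control 2 alone (-0.87), against 0.06 in mutant 1 and 0.03 in mutant 2. In control 2, 5 cells held 73.6% of the Sst UMIs of Aldh1a3-negative cells. Ppm1l was lower in every library, with log2 ratios of -0.35 in control 2, -0.77 in mutant 1 and -0.52 in mutant 2. It had only 7 and 8 UMIs in mutant cells with Aldh1a3, and it was named by its low ratio in control 2. Mafa was also lower in all, at -0.18, -0.24 and -0.08. Creld2 was higher in all, at 0.19, 0.13 and 0.42, and Gc at 0.06, 0.34 and 0.89, though Gc had only 6 and 8 UMIs in mutant cells with Aldh1a3. The share of all genes with the same sign in every library is not given here. Chga (0.23, 0.23 and -0.01), Slc2a2 (-0.33, -0.11 and 0.11) and Neurod1 (-0.39, -0.41 and 0.49) differed in sign between libraries. Cck, Serpina7 and Slc5a10 were below the count minimum of this fit.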

How the data were processed

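DropEst was the authors' tool for counting, and the deposited matrices hold raw UMI counts for each gene in each cell. Per the submitters' processing notes the genome build was GRCm39 and Seurat was used. The aligner and annotation are not given in the sources used here. Where a symbol occurred more than once, the row with the lowest gene ID was used. Control 2 was read with Python 3.11.15, numpy 2.4.6 and scipy 1.17.1. Cells were thinned without replacement, UMIs were summed per group and scaled to CPM, and log2 ratios had 1 UMI added to each sum. Intervals are exact 95% Poisson, binomial or conditional intervals. No doublet caller was run, and an alternative left out the 5% of β cells with the most UMIs. Sums over 3 libraries were tested with edgeR 4.0.16 (TMM, Benjamini-Hochberg) in R 4.3.3, with DESeq2 1.42.0 as an alternative, on genes with a mean of 20 CPM and at least 10 UMIs in 3 of 6 sums. The methods describe pooled islets of males and females, but nothing in the labels shows which animal a cell came from. The named genes are the 12 highest and 12 lowest ratios at 50 CPM or more, listed genes past 0.5, and a fixed set of β-cell genes; further list members are shown as examples and were chosen after their values were seen. Some listed genes are not reported here. The members and lists were chosen with earlier results of these data known. On simulated data, the ratio step recovered 199 of 200 genes changed by 1 on the log2 scale, with 25 of the unchanged genes of 4199 past 0.5. The edgeR step recovered 190 of 200 genes changed by 1.5, and also called 7 unchanged genes. Simulated sums for the ratio step held counting error only, without spread between cells, and those for edgeR had a set dispersion. Recovery of smaller changes was not simulated.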

Additional observations from a re-analysis of the deposited data

Results flagged for a closer look

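Of the 49 genes named here in the fit over libraries, 12 (24.5%) had a log2 ratio (cells with an Aldh1a3 UMI over cells with none) of one sign in control 2 and of the opposite sign in both mutant libraries. Of all 4815 genes in that fit, 1293 (26.9%) had this pattern, a share close to that of the named genes. This difference between control and mutant libraries was not tested, and only 1 control library was analysed. In the order control 2, mutant 1 and mutant 2, the ratios of genes lower in control 2 in this contrast were -0.97, 0.75 and 4.34 for Tff3, -0.87, 0.06 and 0.03 for Sst, -0.57, 0.13 and 0.01 for Stat3, -0.26, 0.49 and 0.17 for Rbm8a, -0.29, 0.27 and 0.12 for Sfi1, -0.13, 0.03 and 0.18 for Nkx2-2, and -0.042, 0.22 and 0.11 for Rpn2. Those of genes higher in control 2 in this contrast were 0.28, -0.04 and -0.01 for Puf60, 0.23, -0.04 and -0.07 for Taf10, 0.22, -0.34 and -0.69 for Sqle, 0.19, -0.26 and -0.12 for Ucn3, and 0.029, -0.04 and -0.03 for Ins2. Between Aldh1a3-high and Aldh1a3-negative cells of control 2 the sign was the other way for Rbm8a (0.60), Sfi1 (0.46), Rpn2 (0.31), Nkx2-2 (0.06) and Ins2 (-0.03). The Tff3 ratios rest on few UMIs with and without Aldh1a3, at 7 and 6 in control 2 and 5 and 34 in mutant 1. In mutant 2, 184 of the 189 Tff3 UMIs in cells with Aldh1a3 came from 1 cell.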

How the results depend on the processing

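The counts of genes past 0.5 depend on the processing. Against 51 higher and 43 lower, they were 175 and 299 without hormone and mitochondrial genes in the total (7698 genes then reached 20 CPM, against 4199), 17 and 14 without thinning, 197 and 157 in cells of 15000 to 25000 UMIs, 138 and 28 with negative cells weighted to the depth of high cells, 15 and 12 with cells classified and genes measured on separate UMIs, 1428 and 2908 with no minimum level, 9 and 4 at 50 CPM, and 1 and 3 at a threshold of 1. A second draw gave 28 lower, and high cells of 2 or of 5 UMIs or more gave 30 or 125 higher. Added after the data were seen, the 3 depth ranges gave 388, 251 and 361 higher and 175, 221 and 134 lower. In these ranges and in the smaller cell sets, counting error is larger. Signs reversed for several genes, such as Snx5 on separate UMIs (-0.031) and Sst with hormones under 0.5% (0.0080). Cartpt reversed without 5 cells in each group (0.37). In the deepest cells Serpina7 (-0.13), Gapdh (0.23), Cartpt (0.29), Rbp4 (0.83), Cmtm4 (0.06) and Syndig1l (0.0031) reversed. Myt1 reversed with negative cells weighted to depth (0.07), and Aldh1l2 in cells of 10000 to 17000 UMIs (-0.16). Pdx1, Atf4, Scg2 and G6pc2, which lay near 0, also changed sign in some alternatives or depth ranges. Cck kept its sign under 14 of 14 alternatives (0.995 to 1.42), as did Pdyn (0.70 to 0.89), Chga (0.30 to 0.52), Iapp under 13 of 13 (0.25 to 0.37), and Slc2a2 (-0.87 to -0.48) and Neurod1 (-0.68 to -0.31) under 14 of 14.

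Over libraries, against 1 higher and 2 lower, DESeq2 and a fit with no library term each called 0 and 0, library totals or no filter gave 4 lower, 1000 UMIs per cell 0 and 1 (neither mt-Co1 nor mt-Co2), and 3000 UMIs 3 and 1. With a library left out, 0 to 2 genes were higher and 0 to 2 lower. With control 2 at 10000 UMIs or more, 4 were higher (Tff3, Pigr, Pdyn and Tbc1d22b) and 1 lower (Sst), and 191 of 207 Pigr UMIs lay in the mutant 2 cell with most Tff3. The fit over libraries has library as a block. No paired analysis was possible because the genotypes share only 1 replicate number among the libraries analysed here. No β cell held Xist and no Y-linked UMI, so the planned comparison of such cells gave no value.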
